A study of Schizosaccharomyces pombe with 6 samples.

Results

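The genes described here are 6 fission yeast genes for making, taking up and regulating thiamine (vitamin B1). They were taken by systematic ID from the 6988 loci of the deposited count table: *nmt1* (SPCC1223.02), *thi2* (SPBC26H8.01), *thi4* (SPAC23H4.10c), *pho4* (SPBC428.03c), *thi9* (SPAC9.10) and *thi1* (SPAC1486.10). The study asked how loss of Siw14, a cysteinyl-phosphatase that removes the β-phosphates of inositol pyrophosphates, affects gene expression in otherwise wild-type *Schizosaccharomyces pombe*. Poly(A)+ RNA was sequenced from 3 labelled biological replicates of an h- wild-type strain and 3 of an h- strain in which the hygromycin-resistance marker HygMX replaces *siw14*. All 6 cultures grew vegetatively at 30 °C in YES, a rich medium made from yeast extract, and were harvested in log phase. The labels do not say whether more than 1 isolate of the deletion was used.

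Thiamine is built from a pyrimidine part and a thiazole part that are made separately and then joined, and its diphosphate is the cofactor of enzymes such as pyruvate dehydrogenase and transketolase. Fission yeast makes thiamine when the medium has none and turns the pathway down when it is supplied. The name *nmt1* stands for "no message in thiamine", and its promoter is the classical switch for driving transgenes in this organism. Yeast extract is a natural source of thiamine. The synthesis genes rely on the zinc-finger activator Thi1.

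Counts in genes summed to between 12875286 and 14583056 per library. The deleted gene *siw14* had 2014 to 2414 counts in the wild-type libraries and 12 to 14 in the *siw14*∆ libraries, so each library carried the level of the genotype on its label. Scaling by the trimmed mean of M values, a normalization from edgeR, gave factors from 0.864 in wild-type replicate 1 to 1.11 in *siw14*∆ replicate 1. The factor of each wild-type library was below that of each *siw14*∆ library. The scaling thus differed by genotype, and comparisons of normalized counts between genotypes depend on it. Normalized counts here are counts brought to one common library size, the geometric mean of the 6 after this scaling. Values of single libraries are listed from replicate 1 to replicate 3. Since RNA was pooled over whole cultures, less RNA per cell and fewer cells with the RNA cannot be told apart.

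The RNA of *nmt1*, which encodes the enzyme that makes the pyrimidine part, was close to the limit of detection in both genotypes. Its counts were 4, 8 and 4 in the wild-type libraries, against 4, 5 and 4 in the *siw14*∆ libraries. The libraries of the genotypes overlapped, and 5 of the 6 lay at 4 or 5 counts. Counting error alone gives a 95% exact Poisson interval of 1.09 to 10.2 for a library with 4 counts and of 3.45 to 15.8 for the one with 8. Normalized counts averaged 5.60 ± 2.29 for wild type against 4.09 ± 0.439 for *siw14*∆ cells (SD, n = 3 each). On the level scaled to both exon length and library size (RPKM), *nmt1* stood at the 3.49th percentile of protein-coding loci in wild type. Of 5107 protein-coding loci in the table, 161 (3.15%), *nmt1* among them, had no more than 8 counts in any library.

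**Figure D1:**
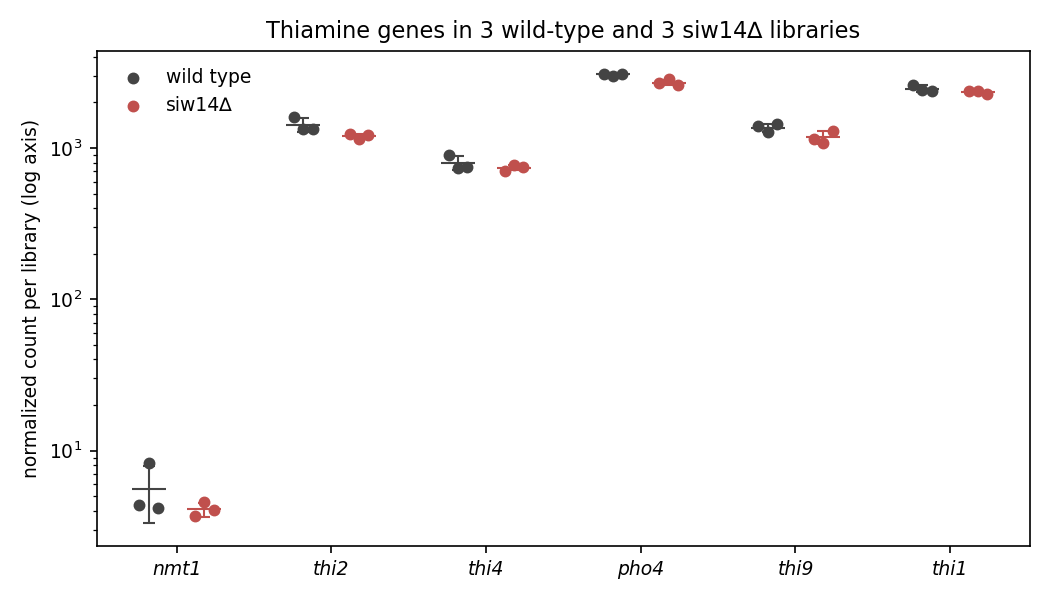
Normalized count (log axis) of each gene in each library, grey for the 3 wild-type and red for the 3 *siw14*∆ libraries; the horizontal mark is the mean and the bar 1 SD. The *nmt1* libraries sit between 3.68 and 8.24 normalized counts, whereas those of the other 5 genes sit between 708 and 3097.

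The low *nmt1* count did not pass the filter for low counts, so that 5 of the 6 genes entered the test across all loci. With every locus of at least 1 count included, edgeR's quasi-likelihood test gave *nmt1* a log2 fold change of −0.44 in *siw14*∆ over wild type, with a 95% interval of −1.70 to 0.82 (adjusted p = 0.609). The ratio rested on wild-type replicate 2, the library with 8 counts: the log2 ratio of the mean normalized counts was −0.45 with all libraries and −0.064 without that one. A change of *nmt1* inside the interval was not detectable at this depth.

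More reads were counted for the locus on the opposite strand of *nmt1* than for the gene. In the annotation used here the whole span of *nmt1*, 1250 bases, lies inside the noncoding locus SPNCRNA.1234, which runs the other way. SPNCRNA.1234 had 209, 257 and 210 counts in wild type against 284, 285 and 257 in *siw14*∆ cells, which is 32.1 to 71.0 times the *nmt1* count of the same library. Per exon length the ratio was 21.99 ± 5.63 for wild type against 30.9 ± 3.37 for *siw14*∆ cells (SD, n = 3 each). SPNCRNA.1234 itself went from 238 ± 23.9 to 260 ± 0.889 normalized counts (SD, n = 3 each). Its log2 fold change was 0.13 ± 0.14 (SE; edgeR adjusted p = 0.487), and −0.21 once a trend over abundance was taken out (adjusted p = 0.288).

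Of 156 protein-coding loci that lie wholly inside an opposite-strand noncoding locus of the table, 100 (64.1%) had at least 100 counts in each library, against 84.4% of all protein-coding loci. *nmt1*, at 4 to 8 counts per library, was not among these 100. In 48 of the 156 (30.8%) the opposite-strand locus had more counts than the gene over the 6 libraries, and in 8 the ratio was higher than for *nmt1*. The libraries were stranded, but no source used here states how strand was treated in counting. Reads of overlapping loci could have been shared or dropped, and the part of this in the *nmt1* count was not tested.

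The other genes share less of their span with an opposite-strand locus of the count table. Over 36.9% of its span of 3316 bases, *thi4* overlaps *cdb4* (SPAC23H4.09), a gene for a curved-DNA-binding protein of a peptidase family. This neighbor had 3713 to 5635 counts per library, 4.57 to 6.86 times those of *thi4*. The ends of *pho4* and *thi9* share 114 and 152 bases with SPNCRNA.1358 and SPNCRNA.743, which had 70 to 123 and 22 to 48 counts per library. For these last 2 loci the count was at most 0.0424 times that of the gene in the same library. Further opposite-strand noncoding loci of the later annotation overlap *thi2*, *thi4*, *thi9* and *thi1* and were not analysed here.

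**Figure D2:**
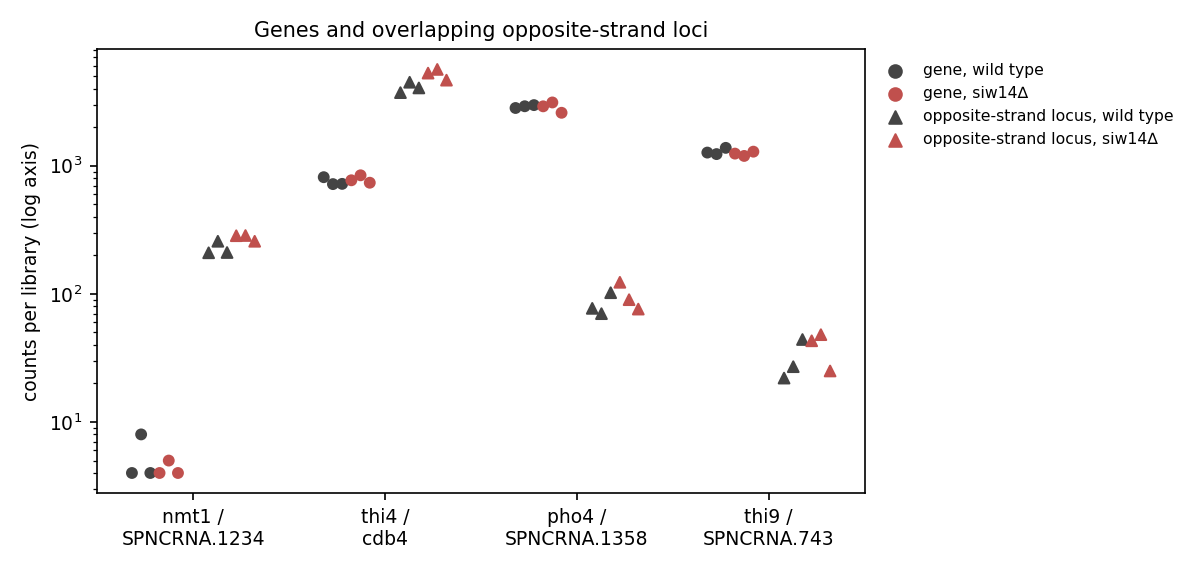
Counts per library (log axis) of 4 genes (circles) and of the annotated opposite-strand locus that overlaps each (triangles), grey for wild-type and red for *siw14*∆ libraries. The opposite-strand locus lies above the gene for *nmt1* (209 to 285 against 4 to 8) and *thi4*, and below it for *pho4* and *thi9*.

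The 5 other genes had far more counts in the same cultures. By RPKM, *pho4*, *thi2*, *thi1* and *thi9* stood at the 82.4th, 76.7th, 71.3rd and 60.1st percentiles of protein-coding loci in wild type, and *thi4* below the median at the 36.5th. On the RPKM scale, wild-type levels were 131 ± 2.46 for *pho4*, 88.0 ± 9.34 for *thi2*, 68.1 ± 3.45 for *thi1*, 42.6 ± 2.71 for *thi9*, 17.5 ± 1.86 for *thi4* and 0.326 ± 0.133 for *nmt1* (SD, n = 3 each). In *siw14*∆ cells they were 116 ± 4.86, 74.5 ± 2.69, 64.7 ± 1.31, 36.7 ± 3.50, 16.2 ± 0.650 and 0.239 ± 0.0256 in the same order (SD, n = 3 each). The order of the 6 levels was thus the same in both genotypes. Over the 6 libraries, the ranges of *thi2* (71.4 to 98.8) and *thi1* (63.2 to 72.0) overlapped, whereas no other neighbors in this order did. The largest step was that from *thi4* to *nmt1*, a ratio of mean RPKM of 53.5 in wild type and 68.1 in *siw14*∆ cells. Exon lengths came from a later annotation than that used for counting, which bears on the levels but not on the comparisons between genotypes.

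The synthesis genes *thi2* and *thi4* did not pass the test. *thi2*, for the enzyme that makes the thiazole part, stood at 1593, 1335 and 1329 normalized counts in wild type against 1229, 1151 and 1223.5 in *siw14*∆ cells. Wild-type replicate 1 was the highest, and after scaling each wild-type library lay above each *siw14*∆ library. Counts before scaling overlapped, at 1452, 1296 and 1274 in wild type against 1336, 1264 and 1209 in *siw14*∆ cells. The means were 1419 ± 151 and 1201 ± 43.4 normalized counts (SD, n = 3 each). The log2 fold change of −0.24 ± 0.10 (SE) had a 95% interval from −0.45 to −0.03 and an adjusted p = 0.0884 in the same edgeR test, adjusted over all loci kept by the method of Benjamini and Hochberg. As a fold this is 0.847, with an interval of 0.731 to 0.981. With all 6 libraries *thi2* had the smallest adjusted p of the 5 genes in this fit. Its log2 fold change was −0.13 without wild-type replicate 1, −0.055 with library totals only and −0.099 after a trend over GC content was taken out (edgeR adjusted p = 0.298, 0.689 and 0.405).

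*thi4*, for the bifunctional enzyme that phosphorylates the thiazole part and joins it to the pyrimidine part, stood at 892, 739 and 752 normalized counts in wild type against 708, 766 and 745 in *siw14*∆ cells. The genotypes overlapped, with wild-type replicate 1 standing above the other 5 libraries. The means were 795 ± 84.5 and 739 ± 29.6 normalized counts (SD, n = 3 each). The log2 fold change of −0.10 ± 0.11 (SE) had an interval from −0.35 to 0.14 and an edgeR adjusted p = 0.500. It was 0.0052 without wild-type replicate 1 (edgeR adjusted p = 0.970) and 0.080 with library totals only (adjusted p = 0.601).

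The acid phosphatase gene *pho4* was the most abundant of the 6. It encodes a cell-surface phosphatase that is repressed by thiamine, whereas its relative Pho1 responds to phosphate. *pho4* stood at 3091, 2995 and 3097 normalized counts in wild type against 2672, 2836 and 2617 in *siw14*∆ cells. After scaling, the lowest wild-type library thus lay above the highest *siw14*∆ library, and the wild-type coefficient of variation was 1.88%. Counts before scaling overlapped, at 2818, 2908 and 2968 in wild type against 2904, 3113 and 2586 in *siw14*∆ cells. The means were 3061 ± 57.5 and 2708 ± 114 normalized counts (SD, n = 3 each). The log2 fold change of −0.18 ± 0.08 (SE) had an interval from −0.36 to 0.0025 and an edgeR adjusted p = 0.126. It became 0.00068 with library totals only (adjusted p = 0.997) and −0.02 once a trend over abundance was taken out (adjusted p = 0.849). The gene *pho1* was present at 7.032 ± 0.638 times the RPKM of *pho4* in wild type and 6.52 ± 0.570 times in *siw14*∆ cells (SD, n = 3 each). Its log2 fold change was −0.28 ± 0.12 (SE, edgeR adjusted p = 0.108). It passed in DESeq2 on all 6 libraries at −0.32 (adjusted p = 0.0365), where 13.3% of all loci were called lower. In edgeR without wild-type replicate 2 it passed at −0.37 (adjusted p = 0.0391), where 717 of 5836 loci were called lower. Without any other single library *pho1* did not pass (edgeR adjusted p = 0.117 to 0.302). It was at −0.10 with library totals only and −0.04 once a trend over abundance was taken out (edgeR adjusted p = 0.409 and 0.774).

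*thi9*, for the high-affinity thiamine transporter of the plasma membrane, stood at 1388, 1268 and 1437 normalized counts in wild type against 1143, 1085 and 1301 in *siw14*∆ cells. The genotypes overlapped in that *siw14*∆ replicate 3 exceeded wild-type replicate 2. The means were 1364 ± 87.0 and 1176 ± 112 normalized counts (SD, n = 3 each), and the log2 fold change of −0.21 ± 0.10 (SE) had an interval from −0.43 to 0.0020 and an edgeR adjusted p = 0.124. Over the left-out libraries the *thi9* value ran from −0.14 without wild-type replicate 3 to −0.30 without *siw14*∆ replicate 3 (edgeR adjusted p = 0.373 and 0.128), and it was −0.036 with library totals only (adjusted p = 0.842).

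Other carriers stood above and below *thi9*. *thi7* (SPBC1683.05), annotated as a transporter, was present at 3.17 ± 0.349 times the RPKM of *thi9* in wild type. SPCC794.03, annotated as a thiamine transporter, was the less abundant one, *thi9* being at 7.57 ± 0.761 times its RPKM (SD, n = 3 each). The log2 fold changes were −0.18 for *thi7* (95% interval −0.37 to 0.0098, adjusted p = 0.140) and −0.37 for SPCC794.03 (−0.73 to −0.02, adjusted p = 0.109) by edgeR. After a trend over GC content was taken out *thi7* passed at −0.35 (edgeR adjusted p = 0.0198), where 941 of 5766 loci were called lower. It was 0.0019 after a trend over abundance was taken out (edgeR adjusted p = 0.992). SPCC794.03 went from 151 ± 5.75 to 116 ± 11.3 normalized counts (SD, n = 3 each), with each wild-type library above each *siw14*∆ library. The genotypes did not overlap at 46.9% of all loci either. With the abundance trend out its log2 fold change was −0.70 (edgeR adjusted p = 0.0582).

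The activator gene *thi1* had the smallest difference of the 5 genes tested. Its normalized counts were 2607, 2413 and 2373 in wild type against 2374, 2364 and 2287 in *siw14*∆ cells, and the genotypes overlapped by *siw14*∆ replicate 1 exceeding wild-type replicate 3. The means were 2464 ± 125 and 2342 ± 47.5 (SD, n = 3 each). The log2 fold change of −0.07 ± 0.08 (SE) had an interval from −0.25 to 0.11 and an edgeR adjusted p = 0.523. The sign was opposite, at 0.11, with library totals only (adjusted p = 0.319) and, at 0.058, once a trend over abundance was taken out (adjusted p = 0.607). *thi5* (SPBP8B7.30c), which encodes another transcription factor of the pathway, was at −0.09 ± 0.10 (log2 fold change ± SE; edgeR adjusted p = 0.517). *thi1* was present at 2.25 ± 0.340 times the RPKM of *thi5* in wild type and at 2.26 ± 0.147 times in *siw14*∆ cells (SD, n = 3 each).

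Across the 5 tested genes, none rose and none fell at an adjusted p of at most 0.05 by edgeR, while 1, *thi2*, passed at an unadjusted p of 0.05. DESeq2 and limma-voom called 0 as well, where they called 32.4% and 21.6% of all loci they tested. Among all 5774 loci kept, 21.7% passed at the adjusted p, 16.7% higher and 4.99% lower in *siw14*∆ cells, and 41.1% passed at the unadjusted p. Leaving out *siw14*∆ replicate 2 or 3, edgeR called 0 of all loci higher and 1 lower, and leaving out wild-type replicate 2 it called 1204 and 717. None of the 5 met the study criteria (adjusted p no more than 0.05, 2-fold or larger change, mean normalized count of 100 or more in the higher genotype), which 0.312% of the loci met. All 5 log2 fold changes were below 0, with a median of −0.18, beside 49.4% below 0 and a median of 0.0063 over all loci. Each of the 5 had a 95% interval that lay wholly within a 1.5-fold change either way, as did 52.6% of all loci. At 2 of the 5, *thi2* and *pho4*, wild-type and *siw14*∆ libraries showed no overlap in normalized counts, as at 46.9% of all loci. Before scaling, the counts of both genes overlapped.

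**Figure D3:**
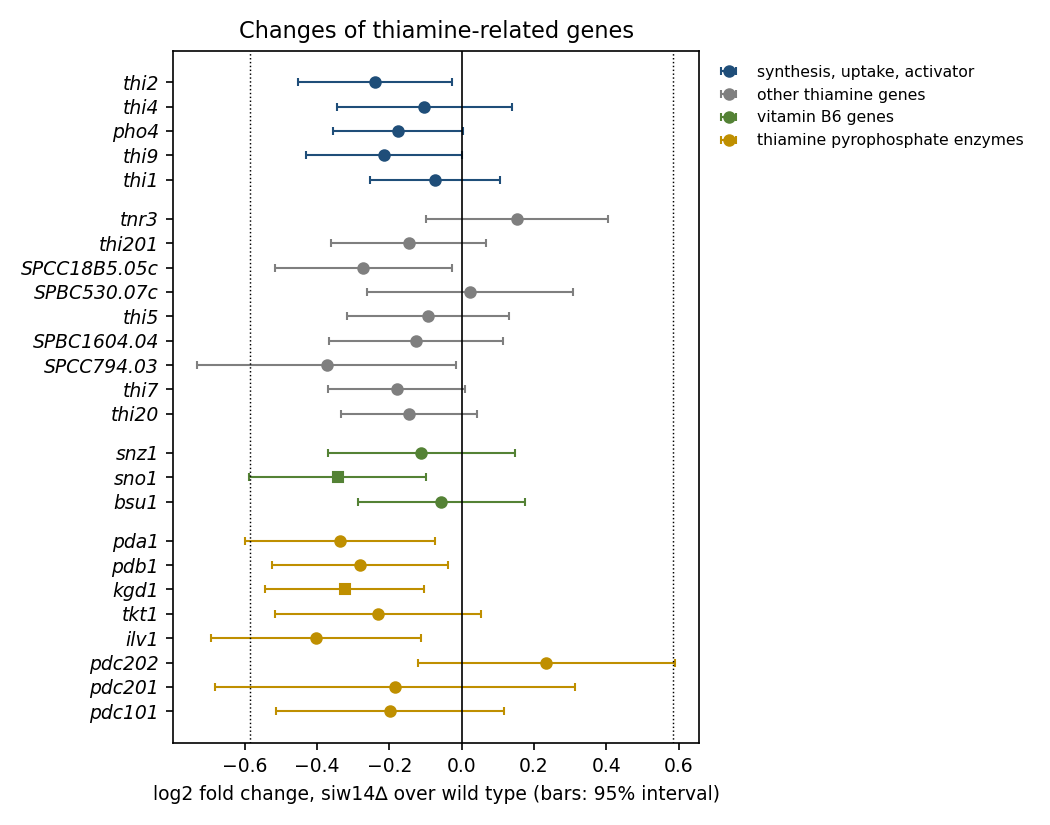
Log2 fold change (*siw14*∆ relative to wild type) with its 95% interval (bars) for the tested genes of each group; squares passed edgeR's test at an adjusted p of at most 0.05, circles did not, and dotted lines mark a 1.5-fold change. The 5 genes described here run from −0.24 to −0.07 inside the dotted lines, and the only squares are *sno1* and *kgd1*.

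For *thi4*, *pho4* and *thi1* the sign of the change depended on the scaling. Library totals only, with no further factor, moved the median of all loci from 0.0063 to 0.18 on the log2 scale. Relative to that median the 5 genes lay at −0.24 (*thi2*), −0.10 (*thi4*), −0.18 (*pho4*), −0.22 (*thi9*) and −0.08 (*thi1*), and with the scaling used throughout these distances were −0.25, −0.11, −0.18, −0.22 and −0.08. The distances were not alike under every alternative. In the same order they were −0.034, −0.14, −0.071, −0.18 and −0.13 after a trend over GC content was taken out, and −0.19, −0.18, −0.011, −0.17 and 0.072 after a trend over abundance was. Without wild-type replicate 1 *thi4* lay −0.021 from the median. Of 75 values of the 5 genes over 15 alternatives, 70 were below 0, 5 above 0 and none passed the threshold. The smallest adjusted p was 0.0613, for *thi2* with DESeq2's size factors in edgeR. All alternatives reuse the same 6 libraries, so these values are not independent and their number adds no evidence for a direction.

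**Figure D4:**
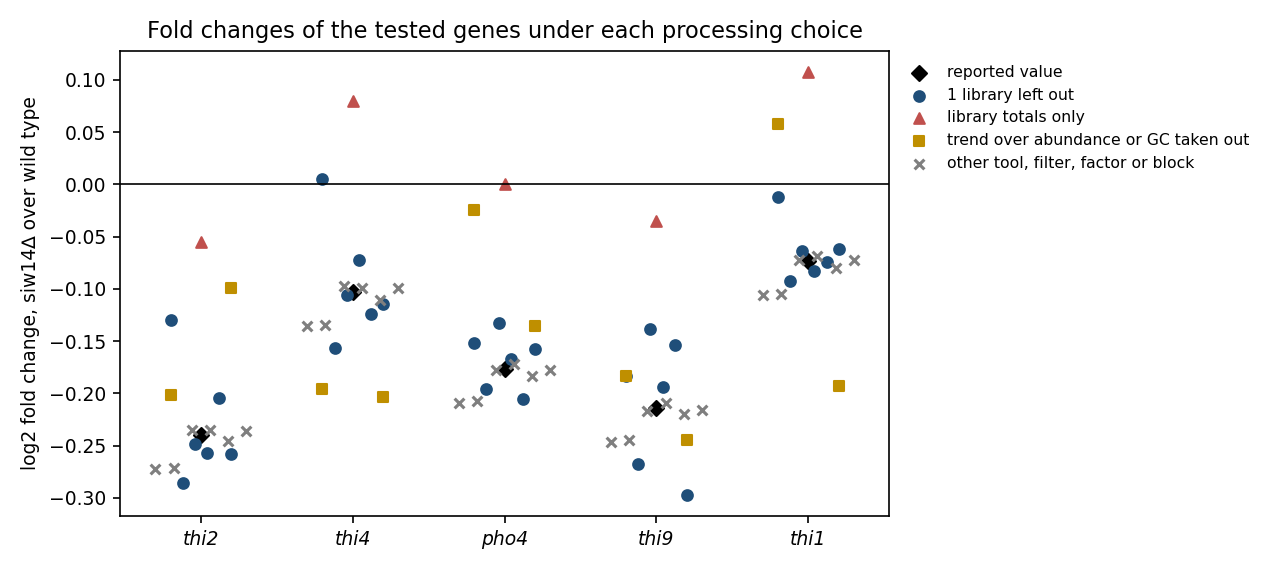
Log2 fold change (*siw14*∆ relative to wild type) for the 5 tested genes as reported (black diamond) and under each of 15 alternatives. Values above 0 occur for *thi4*, *pho4* and *thi1* with library totals only, for *thi4* with wild-type replicate 1 left out and for *thi1* after the trend over abundance was taken out.

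None of the 7 other genes of thiamine metabolism rose or fell by edgeR; 2 passed at an unadjusted p of 0.05, and DESeq2 and limma-voom called 0. Their median log2 fold change was −0.13, with 5 below 0 and 2 above. At 4 of the 7 the normalized counts of the genotypes did not overlap, beside 46.9% of all loci. Among these 4, *tnr3* had the *siw14*∆ libraries above the wild-type ones. The kinase gene *tnr3* (SPAC6F12.05c), whose product turns thiamine into its diphosphate, went from 453 ± 11.2 to 503 ± 39.1 normalized counts (SD, n = 3 each). Its log2 fold change of 0.15 ± 0.11 (SE; edgeR adjusted p = 0.332) was the highest of the 7. Among the phosphomethylpyrimidine kinases, which phosphorylate the pyrimidine part, SPCC18B5.05c was at −0.27 (standard error 0.11, adjusted p = 0.0922) and *thi201* (SPBP8B7.18c) at −0.15 (standard error 0.10, adjusted p = 0.275) by edgeR. *thi20* (SPBP8B7.17c), named with *thi7* for its symbol after the annotation had been read and not among the 7, was at −0.15 (edgeR adjusted p = 0.220), and passed at −0.28 after a trend over GC content was taken out (adjusted p = 0.0342). With that trend out, SPCC18B5.05c and *thi5* were the 2 of the 7 that passed, at −0.41 and −0.26 (edgeR adjusted p = 0.0254 and 0.0479). In that setting edgeR called 941 of 5766 loci lower and 839 higher. SPBC1604.04, annotated as a thiamine pyrophosphate transporter, was at −0.13 (edgeR adjusted p = 0.406). Once a trend over abundance was taken out it was at −0.39 (edgeR adjusted p = 0.0716). Of these genes *thi201*, *thi20*, *thi5* and SPBC1604.04 were above 0 with library totals only, while *tnr3* was below 0 with the abundance trend out. Without wild-type replicate 2, SPCC18B5.05c alone of the 7 passed, at −0.36 (edgeR adjusted p = 0.0222), beside 717 of 5836 loci called lower.

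The pyrimidine part of thiamine is made in yeasts from vitamin B6. Of 3 genes for vitamin B6, 1 passed, falling, and 2 did not, beside the 4.99% of all loci called lower. The glutaminase subunit gene *sno1* (SPAC222.08c) went from 2378 ± 356 to 1875.5 ± 61.7 normalized counts (SD, n = 3 each), which is −0.34 ± 0.11 on the log2 scale (SE; edgeR adjusted p = 0.0488). The call was lost when any single library other than wild-type replicate 2 was left out, with edgeR adjusted p = 0.105 to 0.179. The synthase gene *snz1* (SPAC29B12.04), whose product works with that of *sno1*, had a log2 fold change of −0.11 and the importer gene *bsu1* (SPAC17A2.01) one of −0.06 (edgeR adjusted p = 0.498 and 0.705), both above 0 with library totals only.

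Of 9 genes for enzymes that use thiamine pyrophosphate, 8 were kept by the filter, of which 1 passed, falling, and 7 did not, beside the 4.99% of all loci called lower. Their median log2 fold change was −0.26. *kgd1* (SPBC3H7.03c), for the first subunit of 2-oxoglutarate dehydrogenase, went from 6108 ± 604 to 4884 ± 254 normalized counts (SD, n = 3 each). On the log2 scale this is −0.32 ± 0.10 (SE; edgeR adjusted p = 0.0435). The call was lost without any single library other than wild-type replicate 2, with edgeR adjusted p = 0.0862 to 0.155. The acetolactate synthase gene *ilv1* (−0.40, adjusted p = 0.0508) and the pyruvate dehydrogenase genes *pda1* (−0.34, adjusted p = 0.0627) and *pdb1* (−0.28, adjusted p = 0.0842) were next by edgeR. Without wild-type replicate 2, *ilv1* and *pda1* passed as well (−0.48 and −0.43), beside 717 of 5836 loci called lower. The pyruvate decarboxylase gene *pdc102* (SPAC186.09), not kept, had 0, 4 and 1 counts in wild type against 0, 1 and 0 in *siw14*∆ cells. DESeq2 called 4 of the enzyme genes lower, beside 13.3% of all loci it tested. With library totals only edgeR called 0, and *kgd1* was at −0.14 (adjusted p = 0.209). Once a trend over abundance was taken out, *kgd1* was at −0.11, *ilv1* at −0.18, *pda1* at −0.09 and *pdb1* at −0.06. None of these 4 passed there (edgeR adjusted p = 0.227 to 0.622). With a trend over GC content out, edgeR called all 4, *kgd1* at −0.31 (adjusted p = 0.0230), beside 941 of 5766 loci called lower.

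Of the 12 nearest protein-coding neighbors of the 6 genes, 3 rose, beside the 16.7% of all loci called higher. They were *sec9*, for a protein of secretory transport, beside *thi2* (0.50, adjusted p = 0.0235), *nob1*, for a ribosomal RNA endonuclease, beside *thi1* (0.71, adjusted p = 0.0235) and the centromere protein gene *cnl2* beside *thi4* (0.73, adjusted p = 0.0239) by edgeR. These 3 calls were lost without *siw14*∆ replicate 2 or 3 (edgeR adjusted p = 0.0981 or 0.0865), where no locus at all was called higher. The log2 fold changes without either library were 0.49 and 0.50 for *sec9*, 0.60 and 0.72 for *nob1*, and 0.71 and 0.78 for *cnl2*. The call of *cnl2* was also lost without *siw14*∆ replicate 1 (0.70, edgeR adjusted p = 0.0598). After a trend over abundance was taken out, all 3 calls were lost, and 0 of all loci were called higher. There *sec9* was at 0.49, *nob1* at 0.65 and *cnl2* at 0.39 (edgeR adjusted p = 0.0582, 0.0582 and 0.0975). With a trend over GC content out, *cnl2* was at 0.47 and still called (edgeR adjusted p = 0.0236). None of the 12 fell by this test. At *nmt1*, the ubiquitin ligase gene *hel2* was at 0.30 and the glycerol-3-phosphate dehydrogenase gene *gut2* at −0.65 (edgeR adjusted p = 0.0605 and 0.0835). Counts of *gut2* were 880, 409 and 743 in wild type against 591, 391 and 471 in *siw14*∆ cells, with wild-type replicate 2 inside the *siw14*∆ range. Without that library *gut2* was called at −0.93 and *hel2* at 0.33 (edgeR adjusted p = 0.00583 and 0.0461). There edgeR called 1204 of 5836 loci higher and 717 lower. Without wild-type replicate 1 or 3, *gut2* was not called, at −0.36 and −0.55 (edgeR adjusted p = 0.359 and 0.215). Nor was *hel2*, at 0.33 and 0.30 (edgeR adjusted p = 0.0610 and 0.0912).

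Over the 6 libraries the tested genes followed each other in part. The Pearson coefficient of log2 CPM between members ran from 0.346 for *thi9* and *thi1* to 0.887 for *thi2* and *thi1*, as a description of 6 points that share 2 genotypes and the scaling. The loci most like *pho4* by this measure were *pmt3*, for the ubiquitin-like modifier SUMO (0.987), the cytochrome c oxidase gene *cox9* (0.984) and SPNCRNA.875 (0.980), among 141 loci above 0.9. Those most like *thi1* were *sec13* (0.999), *trm44* (0.998) and *dbp6* (0.993), among 233 loci above 0.9. No such list was made for *nmt1*, which the filter removed.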

How the data were processed

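The authors mapped paired reads to ASM294v2 with HISAT2 2.1.0 and counted them over exons with HTSeq 0.10.0, and their deposited table gives the resulting counts without normalization. A further 5 lines of it have no ID and were left out. For the *siw14*∆ libraries they hold 31.6% to 35.8% of the total of these lines and the genes together, and for the wild-type libraries no counts. They name no gene, and the counts in genes given above do not include them. The deposited table of the authors' DESeq2 comparison (fold changes, p-values, strain means) was not used. From the counts, glmQLFTest in edgeR 4.0.16, after filterByExpr and TMM scaling (R 4.3.3), compared 3 *siw14*∆ with 3 wild-type libraries over 5774 loci, with Benjamini-Hochberg adjustment; the script was tested on simulated data. The 95% intervals use the t quantile. Alternatives were DESeq2 1.42.0, limma-voom (limma 3.58.1), other factors and filters, a replicate block, loess trends (span 0.3) and leaving out each library. Symbols, lengths, overlaps and neighbors come from ASM294v3 (6836 of 6988 IDs matched), not the authors' build, so no coordinates or sequences are given. The genes named were the 6 members, *siw14*, *pho1*, genes of the lists that passed and up to 4 others of each with the smallest p, overlapping and nearest loci, and the 3 loci most like *nmt1* (not kept, so none), *pho4* and *thi1*; *thi5*, SPBC1604.04 and *pdc102* fall outside this rule and were chosen after their values were seen, and *thi7* and *thi20* were added by symbol; members and lists were chosen with earlier results of these data known. Replicates are labelled biological, and p-values measure the spread between these libraries. With 3 against 3, an exact permutation test cannot go below 0.1, so none was used.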

Additional observations from a re-analysis of the deposited data

How the results depend on the processing

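None of the 5 tested genes was called under any alternative run, nor was *nmt1* with the 1-count filter. The values with the sign turned were, with library totals only, 0.080 (*thi4*), 0.00068 (*pho4*) and 0.11 (*thi1*), and 0.058 for *thi1* with the trend over abundance taken out. Leaving out each library gave −0.16 to 0.0052 for *thi4* and −0.14 to 0.015 for *thi5*. For other named loci the sign turned with library totals only at *bsu1* (0.12), *snz1* (0.071), *thi20* (0.034), *thi201* (0.033), *thi5* (0.081) and SPBC1604.04 (0.053), with the abundance trend at *snz1* (0.10), *tnr3* (−0.095), *thi7* (0.0019) and SPNCRNA.1234 (−0.21), and with the GC trend at *snz1* (0.064). Among other thiamine genes the trend over GC content gave 2 calls, and leaving out a library 0 to 1. The 1 call among vitamin B6 genes became 0 with library totals only, limma-voom, the 1-count filter and the trend over abundance, and was 0 to 1 over the left-out libraries. For thiamine pyrophosphate enzymes the calls were 3 with DESeq2's size factors in edgeR, 4 in DESeq2 itself, 4 with the GC trend, 2 with the filter of at least 1 or of at least 10 counts, 0 with library totals only or the abundance trend, and 0 to 3 over the left-out libraries. With the replicate number as a block they were 0, *thi2* was at −0.24 and *gut2* was called (−0.60, edgeR adjusted p = 0.0172); same-numbered libraries deviated together at −0.26, 0.18 and −0.16, so the numbers were not taken as pairs. Over all loci, calls higher and lower were 964 and 288, against 1368 and 31 with library totals only, 839 and 941 with the GC trend, 903 and 495 with DESeq2's size factors, 1025 and 712 from DESeq2 itself, 0 and 1 with the abundance trend, and 1007 and 156 with the block. Over the left-out libraries they ran from 0 to 1204 higher and from 1 to 717 lower. The cause of these shifts was not tested. Depth limits *nmt1*, at 4 to 8 counts, and *pdc102*, at 0 to 4.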
